A study of Gallus gallus with 10 samples.

Results

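The genes of the unfolded protein response and the heat shock response were followed in cranial neural folds of chick embryos after an NSD3 morpholino. The members were a list of 36 symbols matched to the deposited table of 19168 genes, of which 34 were found by their Ensembl symbol or, for DDIT3, by its protein database symbol. SYVN1 and TRIB3 were not matched and are not analysed here. Polyadenylated RNA was sequenced from 5 pools given the NSD3 morpholino (NSD3 MO) and 5 pools given the control morpholino (mmMO), each pool holding the folds of 12 embryos. A morpholino is a stable synthetic oligomer that pairs with an RNA and keeps it from being translated or spliced, and NSD3 is a SET domain histone methyltransferase. Both groups received 0.5 mM of their morpholino together with 300 ng/µL of pCS2+myc plasmid as carrier, by electroporation of both sides of HH4 to HH5 embryos, and had their folds dissected once 5 to 7 somites had formed. The labels name no strain and do not say which step the NSD3 morpholino blocks.

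Proteins that enter the endoplasmic reticulum (ER) are folded there by chaperones and disulfide isomerases. When unfolded protein builds up, the membrane sensor IRE1 (gene ERN1) splices the XBP1 message, ATF6 is cut to release a transcription factor, and PERK (gene EIF2AK3) phosphorylates eIF2alpha, which lowers general translation and raises that of ATF4. XBP1 and ATF6 act mainly on ER chaperones and on the degradation of misfolded ER proteins, and ATF4 acts on amino acid metabolism, CHAC1 and DDIT3. In the cytosol and nucleus, heat shock factors drive the HSP70, HSP90 and J-domain chaperones. Neural crest cells export matrix and adhesion proteins through the same secretory route.

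NSD3 itself stood at 17.3, 15.9, 18.4, 19.5 and 18.4 FPKM in NSD3 MO pools 1 to 5, against 20.8, 21.5, 21.3, 24.7 and 25.9 FPKM in mmMO pools 1 to 5. FPKM counts sequenced fragments relative to transcript length and to a measure of library size. The groups did not overlap (exact permutation p = 0.00794, two-sided, the smallest the design allows), and the log2 fold change was -0.34 (limma adjusted p 0.055). The authors' deposited table gives -0.35 with an adjusted p of 0.00439. Relative depth, read from the spacing of low values, ran from 0.887 to 1.29 in NSD3 MO pools and from 0.977 to 1.06 in mmMO pools. All 17 neural fold markers were found, and their summed level was 1645 to 1983 FPKM in NSD3 MO pools and 1908 to 3052 FPKM in mmMO pools. Of these markers NCAM1, TFAP2B, ZIC1 and SOX9 fell and 13 were not called, with 23.5% of the list called against 2.52% of all tested genes. The authors' deposited table holds these 4 and also ZIC2 (-0.45, adjusted p 0.0171) and PAX7 (-0.37, adjusted p 0.0466). The pools mmMO 4 and 5 were the 2 highest of 10 for 9 of the 17. Without them 3 of these markers were called lower, and 1.2% of all tested genes. The median log2 fold change of the list was then -0.23, against -0.38 with all pools. A negative log2 fold change was found for all 17 with all pools and for 12 without mmMO 4 and 5. Over all tested genes 49.4% and 48.6% were positive. With all pools 8 of the 17 reached an unadjusted limma p under 0.05, all lower, 47.1% against 18.1% of all tested genes. Of 5 tested mesoderm markers ACTC1 and FOXC2 rose, 40% of those tested against 2.52% of all tested genes. Of the 5, 4 had a positive log2 fold change. The negative one was -0.34, with an unadjusted limma p under 0.05. The summed level over the 12 mesoderm markers found was 22.4 to 33.6 FPKM in NSD3 MO pools and 16 to 20.6 FPKM in mmMO pools. None of the 8 tested epidermis, 4 notochord, 2 endoderm or 3 blood and vessel markers was called, against 2.52% of all tested genes. All 4 notochord markers had a negative log2 fold change, and 3 did without mmMO 4 and 5. Of the 8 epidermis markers, 5 had a positive log2 fold change, and 7 without mmMO 4 and 5. An unadjusted limma p under 0.05 was reached by 3, all higher, 37.5% of them against 18.1% of all tested genes. Summed, the 10 epidermis markers found stood at 376 to 442 FPKM in NSD3 MO pools and 318 to 390 in mmMO pools. The authors' deposited table holds KRT7 of this list (0.49, adjusted p 0.00834). No marker found was at 0 in all 10 pools. Means below 1 FPKM were found for TP63 and GRHL3 (epidermis), TWIST1, TCF21, FOXC1, TBX1, TBX6, TCF15 and MYF5 (mesoderm), SHH and FOXA2 (notochord), SOX17, TTR and FGB (endoderm), and HBBA, HBZ, TAL1, CDH5 and CD34 (blood and vessel). The part of these cell types in the results below was not tested, and in bulk folds fewer cells of a type and less RNA per cell cannot be told apart.

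Among the 34 members, XBP1 fell and ATF6 rose, and 32 were not called. Calls were made at an adjusted p under 0.05 over all 11935 genes with a mean of at least 1 FPKM, a filter that all 34 members passed. At that threshold limma called 1.5% of all tested genes higher and 1.02% lower, and 5.88% of members were called in either direction, against 2.52% of all tested genes. The groups did not overlap for 4 members in the higher direction and 1 in the lower, 14.7% of members in all. Over all tested genes the share without overlap was 3.68% higher and 2.36% lower, 6.04% in all. An unadjusted p under 0.05 was reached by 10 members in the higher direction and 2 in the lower, 35.3% of members, against 9.78% higher, 8.29% lower and 18.1% in all among the tested genes. The pools mmMO 4 and 5 stood apart from the other mmMO pools, as given below. They were picked from the values and not by a label. Without them 2 members were called higher (ATF6 and HSPA2) and 1 lower (XBP1). In that fit 1.68% of all tested genes were called higher, 1.2% lower and 2.87% in either direction. Of the members, 24 had a positive log2 fold change with all pools and 20 without mmMO 4 and 5, against 49.4% and 48.6% of all tested genes. The authors' deposited table of 674 genes, 3.52% of the genes in the FPKM table, holds 3 members, XBP1, ATF6 and CALR.

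XBP1, the transcription factor made from the message that IRE1 splices, had 68.2, 62.7, 77.2, 76.9 and 59.8 FPKM in NSD3 MO pools 1 to 5, against 98.4, 106, 90.8, 82.4 and 99.9 FPKM in mmMO pools 1 to 5. Every NSD3 MO pool lay below every mmMO pool, with mmMO 4 the lowest of its group. The mean was 69.0 ± 7.98 FPKM in NSD3 MO pools and 95.4 ± 8.95 FPKM in mmMO pools (SD, n = 5 each), a ratio of 0.723. The log2 fold change was -0.47 (SE 0.0902, limma adjusted p 0.0205) on the log2(FPKM + 0.5) scale used for all fold changes here, and the authors' deposited table gives -0.47 with an adjusted p of 0.000274. Gene-level FPKM adds spliced and unspliced XBP1, so the share that IRE1 had processed was not measured. The call was lost without mmMO 1 (adjusted p 0.051), mmMO 2 (0.0505), NSD3 MO 2 (0.0656) or NSD3 MO 5 (0.0535), with log2 fold changes between -0.46 and -0.42. It held without mmMO 4 and 5 together, at -0.51 (adjusted p 0.0204). Of the mmMO pools, mmMO 4 lay nearest the NSD3 MO pools, so leaving it out widens the gap by construction. With a term for replicate number in the fit the call was lost (adjusted p 0.0821).

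ERN1, which encodes IRE1, had 9.63, 9.14, 12.5, 10.6 and 8.84 FPKM in NSD3 MO pools 1 to 5, against 12.6, 10.9, 12, 14.1 and 11.1 FPKM in mmMO pools 1 to 5. In NSD3 MO 3 it stood within the range of the mmMO pools, and in the other 4 NSD3 MO pools below that range. The log2 fold change was -0.25 (95% interval -0.48 to -0.02), with an unadjusted p of 0.0383 and a limma adjusted p of 0.246, so ERN1 was not called. ERN1 and XBP1 thus both had negative fold changes, of which that of XBP1 passed the test.

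ATF6, the membrane-bound sensor that is cut to give a transcription factor, had 8.19, 8.3, 7.67, 6.9 and 8.46 FPKM in NSD3 MO pools 1 to 5, against 5.9, 4.55, 5.68, 5.92 and 6.18 FPKM in mmMO pools 1 to 5. Every NSD3 MO pool lay above every mmMO pool. The mean was 7.91 ± 0.634 FPKM in NSD3 MO pools and 5.65 ± 0.638 FPKM in mmMO pools (SD, n = 5 each), with a log2 fold change of 0.45 (SE 0.0998, limma adjusted p 0.0366). The authors' deposited table gives 0.49 with an adjusted p of 0.000424. The row carries the Ensembl symbol ATF6 and the protein database symbol ATF6B, its paralog, so which of these it measures is uncertain. Its call held without mmMO 3 or mmMO 5. It was lost without mmMO 1 (adjusted p 0.0631), mmMO 2 (0.0629), mmMO 4 (0.0683), or NSD3 MO 1 (0.0766), 2 (0.103), 3 (0.0734), 4 (0.051) or 5 (0.0887). Leaving out mmMO 4 and 5 together gave 0.52 (adjusted p 0.0371). Those pools held the highest mmMO levels of this row, so leaving them out raises the fold change by construction. The call was also lost with a term for replicate number in the fit (adjusted p 0.0868). The same held with no filter (0.0555) and with the same total FPKM in every library (0.0661).

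**Figure D1:**
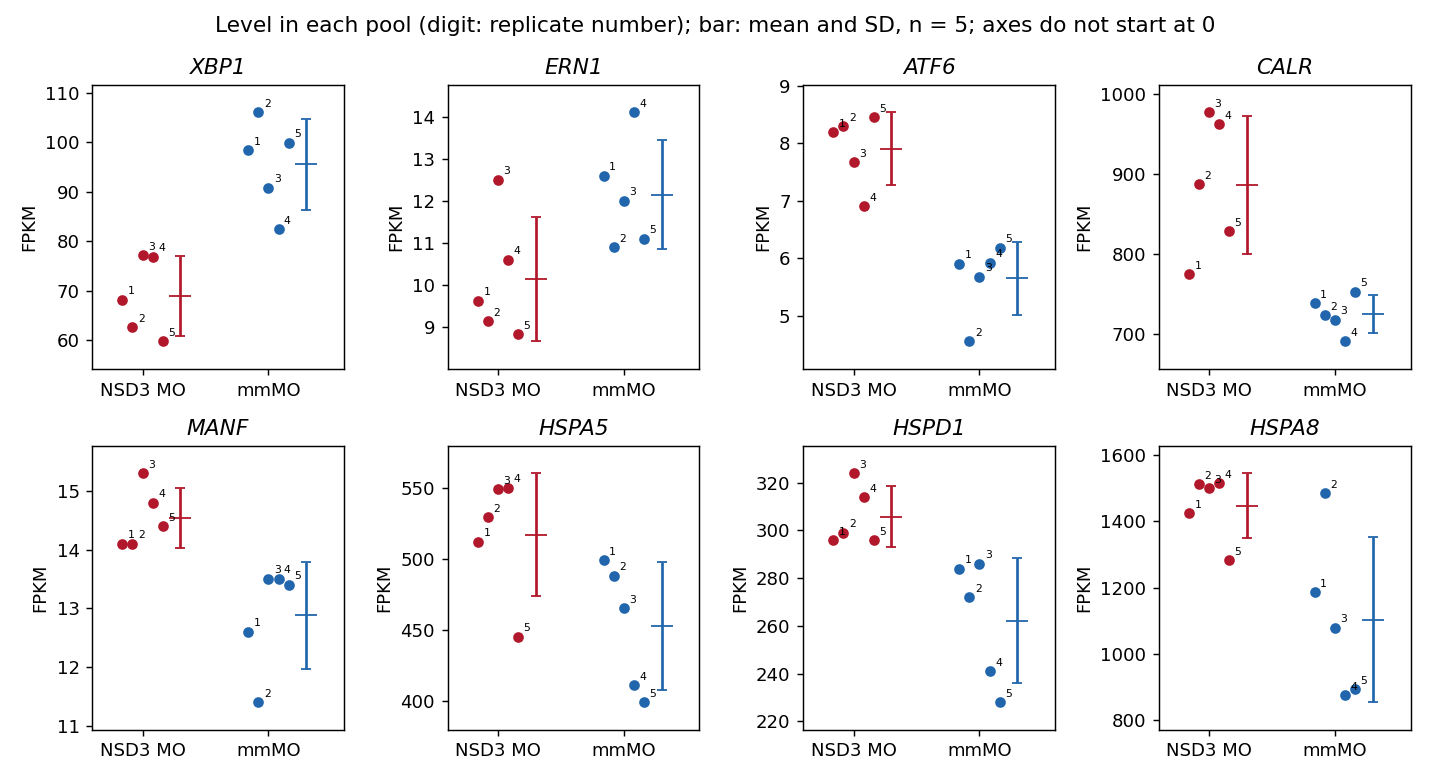
FPKM (vertical axes, which do not start at 0) of 8 members in each of the 5 NSD3 MO pools (red, left) and 5 mmMO pools (blue, right), with the mean and SD of each group and the replicate number beside each point. XBP1 is lower in every NSD3 MO pool, at 59.8 to 77.2 FPKM against 82.4 to 106 FPKM in mmMO pools, while ATF6, CALR, MANF and HSPD1 are higher in every NSD3 MO pool. Of these, CALR, MANF and HSPD1 were not called, and the identity of the ATF6 and MANF rows is uncertain. The groups did not overlap for 14.7% of all members, against 6.04% of all tested genes.

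None of the 14 members that fold proteins in the ER was called, against 2.52% of all tested genes. This set was taken by role after the values were seen. An unadjusted limma p under 0.05 was reached by 7 in the higher direction and 0 in the lower, 50% of the set, against 18.1% of all tested genes. NSD3 MO and mmMO pools did not overlap for 2 of the 14 (14.3%), against 6.04% of all tested genes. Of the 14 members, 13 had a positive log2 fold change and DNAJB9 a negative one, with a median of 0.17, against 49.4% positive and a median of -0.003 over all tested genes. Without mmMO 4 and 5, the 2 lowest of the 10 pools for 10 of the 14, 10 were positive and 4 negative, with a median of 0.09. Most of the set thus shared its low pools, so the 7 unadjusted p-values are not separate results. CALR, the calcium-binding lectin chaperone calreticulin, came nearest to the threshold. It had 775, 887, 977, 962 and 829 FPKM in NSD3 MO pools 1 to 5, against 739, 724, 718, 691 and 753 FPKM in mmMO pools 1 to 5. The groups did not overlap, and NSD3 MO 1 lay closest to the mmMO pools. Its log2 fold change was 0.28 (SE 0.0679, limma adjusted p 0.0506), which passed without NSD3 MO 1 (0.33, adjusted p 0.0262). It stayed at 0.28 without mmMO 4 and 5 (adjusted p 0.0716), and the authors' deposited table gives 0.29 with an adjusted p of 0.00695.

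MANF, a secreted ER-stress protein, had 14.1, 14.1, 15.3, 14.8 and 14.4 FPKM in NSD3 MO pools 1 to 5, against 12.6, 11.4, 13.5, 13.5 and 13.4 FPKM in mmMO pools 1 to 5. These groups did not overlap either, with a log2 fold change of 0.17 (limma adjusted p 0.23), and 0.21 without mmMO 4 and 5. The MANF row carries the protein database symbol of its paralog CDNF, so its identity is uncertain too. CANX, the membrane lectin calnexin, averaged 132 ± 5.64 FPKM in NSD3 MO pools and 116 ± 8.12 FPKM in mmMO pools (SD, n = 5 each; log2 fold change 0.19, limma adjusted p 0.115). Without mmMO 4 and 5 the log2 fold change of CANX was 0.13.

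HSPA5, the ER HSP70 known as BiP that also holds the sensors inactive, had 512, 529, 549, 550 and 445 FPKM in NSD3 MO pools 1 to 5, against 499, 488, 465, 411 and 399 FPKM in mmMO pools 1 to 5. The groups overlapped through NSD3 MO 5, and mmMO 4 and 5 were the lowest of the 10 pools. The log2 fold change was 0.19 (95% interval 0.02 to 0.37, limma adjusted p 0.235) and 0.09 without mmMO 4 and 5. HSP90B1, the ER HSP90 known as GRP94, had 282, 279, 315, 293 and 220 FPKM in NSD3 MO pools 1 to 5, against 274, 255, 265, 170 and 159 FPKM in mmMO pools 1 to 5. Its log2 fold change of 0.34 (limma adjusted p 0.298) was 0.06 without mmMO 4 and 5.

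Of the disulfide isomerases, PDIA4 averaged 128 ± 8.74 FPKM in NSD3 MO pools and 106 ± 16.3 FPKM in mmMO pools (log2 fold change 0.28, limma adjusted p 0.161, and 0.13 without mmMO 4 and 5). PDIA3, which works with the lectin chaperones, averaged 150 ± 8.61 FPKM in NSD3 MO pools and 135 ± 4.15 FPKM in mmMO pools (0.15, adjusted p 0.157). Without mmMO 4 and 5 the log2 fold change of PDIA3 was 0.18. P4HB, the isomerase that is also a subunit of prolyl 4-hydroxylase, averaged 388 ± 23.3 FPKM in NSD3 MO pools and 347 ± 24.3 FPKM in mmMO pools (0.16, adjusted p 0.199, and 0.1 without mmMO 4 and 5). PDIA6 had a log2 fold change of 0.12 (adjusted p 0.555), and -0.04 without mmMO 4 and 5. All SDs in this paragraph are over 5 pools, and no isomerase was called.

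The cochaperones and the lower-abundance factors did not pass either. HYOU1, an ER chaperone that exchanges the nucleotide of BiP, had a log2 fold change of 0.13 (limma adjusted p 0.425). SDF2L1 had 0.23 (adjusted p 0.4) and the isomerase-like CRELD2 0.14 (adjusted p 0.65), and without mmMO 4 and 5 these were 0.02 and -0.05. The J-domain cochaperones of BiP were DNAJC3, at 0.03 (95% interval -0.16 to 0.23), and DNAJB9, at -0.1 (-0.5 to 0.31). DNAJB9 was high in NSD3 MO 1 (17.4 FPKM), mmMO 1 (16.5 FPKM) and mmMO 3 (19.1 FPKM), and between 9.71 and 12 FPKM in the other 7 pools.

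The 3 members of ER-associated degradation were also set apart by role after the values were seen. None was called, against 2.52% of all tested genes. All 3 had log2 fold changes below 0, and 49.4% of all tested genes had one above 0. The fold changes of EDEM1 and SEL1L reached 0.02 in fits that left out 1 pool. HERPUD1, a membrane scaffold of the degradation complex, had 19.5, 17, 18.2, 20.3 and 15.8 FPKM in NSD3 MO pools 1 to 5, against 19, 20.6, 18.3, 22.5 and 28 FPKM in mmMO pools 1 to 5. The groups overlapped, and mmMO 5 was the highest of the 10 pools. Its log2 fold change was -0.24 (limma adjusted p 0.299), and -0.09 without mmMO 4 and 5. EDEM1, a lectin that marks misfolded glycoproteins, had -0.04 (95% interval -0.25 to 0.17), and SEL1L, the partner of the ubiquitin ligase, had -0.01 (-0.21 to 0.19).

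The PERK and ATF4 arm showed no call among its 5 members, against 2.52% of all tested genes. So few members cannot set the arm apart from that share. Its fold changes ran from -0.53 to 0.14. Of the 5, 2 had a positive log2 fold change with all pools and 5 without mmMO 4 and 5. Over all tested genes these shares were 49.4% and 48.6%. NSD3 MO 5, the highest of its group for ATF4, EIF2AK3 and CHAC1, was kept when mmMO 4 and 5 were left out. ATF4 had 369, 384, 410, 380 and 435 FPKM in NSD3 MO pools 1 to 5, against 344, 418, 347, 369 and 509 FPKM in mmMO pools 1 to 5. The groups overlapped throughout, with a log2 fold change of 0.01 (95% interval -0.21 to 0.23, limma adjusted p 0.975). ATF4 is controlled mainly in translation, which RNA levels do not measure. EIF2AK3, which encodes PERK, spread widely, at 8.42 to 15.5 FPKM in NSD3 MO pools and 7.46 to 18.3 FPKM in mmMO pools (log2 fold change -0.03, 95% interval -0.51 to 0.44). ASNS, the asparagine synthetase that ATF4 induces, averaged 20.0 ± 1.01 FPKM in NSD3 MO pools and 18.2 ± 1.77 FPKM in mmMO pools (SD, n = 5 each; log2 fold change 0.14, limma adjusted p 0.366). Without mmMO 4 and 5 the log2 fold change of ASNS was 0.19.

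DDIT3, the transcription factor CHOP, had 12, 12, 12.3, 9.89 and 12.1 FPKM in NSD3 MO pools 1 to 5, against 8.98, 11.3, 12.3, 18 and 19.4 FPKM in mmMO pools 1 to 5. In mmMO 4 and 5 it stood above the other 8 pools. Its log2 fold change was -0.2 (limma adjusted p 0.61) and 0.11 without those pools. CHAC1, a glutathione-degrading enzyme and a sensitive ATF4 target, split the pools further. It had 0.62, 0.526, 1.36, 0.344 and 12.6 FPKM in NSD3 MO pools 1 to 5, against 0.485, 0.269, 0.457, 10.3 and 18.5 FPKM in mmMO pools 1 to 5. NSD3 MO 5, mmMO 4 and mmMO 5 were high and the other 7 pools low, so the pattern crossed the groups. From the spacing of the deposited values, the low pools held 6 to 27 fragments of CHAC1, against 275 in NSD3 MO 5, 244 in mmMO 4 and 422 in mmMO 5. The log2 fold change of CHAC1 was -0.53 with a 95% interval from -2.73 to 1.67 (limma adjusted p 0.831), and it was 1.07 without mmMO 4 and 5 (adjusted p 0.46). That second fit kept the high NSD3 MO 5.

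**Figure D2:**
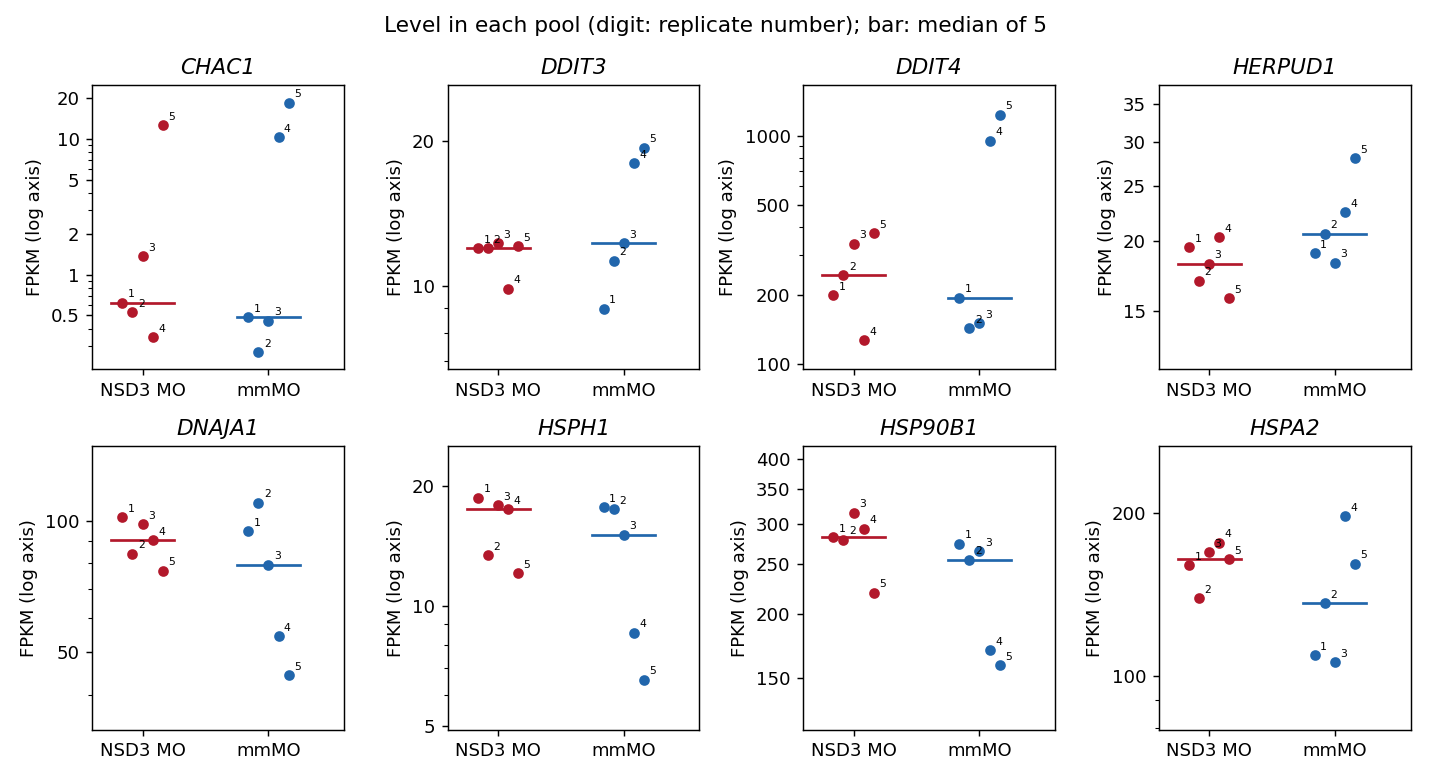
FPKM on log axes of CHAC1, DDIT3, DDIT4, HERPUD1, DNAJA1, HSPH1, HSP90B1 and HSPA2 in each of the 5 NSD3 MO pools (red, left) and 5 mmMO pools (blue, right), with replicate numbers and the group median as a bar. In mmMO 4 and 5 CHAC1, DDIT3 and DDIT4 are above mmMO 1 to 3 and DNAJA1, HSPH1 and HSP90B1 below them, and NSD3 MO 5 shares the high CHAC1 at 12.6 FPKM.

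None of the 9 heat shock members was called, against 2.52% of all tested genes. An unadjusted limma p under 0.05 was reached by 2 in the higher direction and 0 in the lower, 22.2% of the 9, against 18.1% of all tested genes. Of the 9 members, 8 had a positive log2 fold change, against 49.4% of all tested genes, with a median of 0.22. The fit without mmMO 4 and 5 gave 4 positive and 5 negative, with a median of -0.03. HSPA8, the constitutive cytosolic HSP70 and the most abundant member, had 1425, 1512, 1499, 1514 and 1283 FPKM in NSD3 MO pools 1 to 5, against 1187, 1484, 1079, 875 and 894 FPKM in mmMO pools 1 to 5. Of the mmMO pools, 4 lay below all NSD3 MO pools and mmMO 2 lay among them. Its log2 fold change was 0.42 (SE 0.128, limma adjusted p 0.113), with 0.53 (adjusted p 0.0277) without mmMO 2 and 0.22 (adjusted p 0.227) without mmMO 4 and 5. HSPA2, another HSP70 gene, had 160, 139, 169, 176 and 164 FPKM in NSD3 MO pools 1 to 5, against 109, 136, 106, 197 and 161 FPKM in mmMO pools 1 to 5. Its values were higher in mmMO 4 and 5 than in mmMO 1 to 3, the reverse of HSPA8. With all pools its log2 fold change was 0.22 (adjusted p 0.482), and without mmMO 4 and 5 it was called higher, at 0.47 (SE 0.0956, adjusted p 0.03). Those pools were picked from the values and held its highest mmMO levels, so leaving them out raises its fold change by construction. HSP70 genes are similar in sequence, as are HSP90 genes, and how shared reads were counted is not given in the sources used here, so these levels are uncertain.

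The HSP90 gene and the cochaperones were lowest in mmMO 4 and 5. DNAJA1, a J-domain cochaperone of HSP70, had 102, 84, 98.1, 90.3 and 76.9 FPKM in NSD3 MO pools 1 to 5, against 94.6, 110, 79.4, 54.5 and 44.4 FPKM in mmMO pools 1 to 5. HSPH1, the HSP110 nucleotide exchange factor, had 18.7, 13.4, 17.9, 17.5 and 12.1 FPKM in NSD3 MO pools 1 to 5, against 17.7, 17.5, 15.1, 8.58 and 6.54 FPKM in mmMO pools 1 to 5. In mmMO 1 to 3 both overlapped the NSD3 MO pools. Their log2 fold changes were 0.31 (limma adjusted p 0.491) and 0.36 (adjusted p 0.509), and without mmMO 4 and 5 they were -0.06 and -0.09. HSP90AA1, the inducible cytosolic HSP90, ranged from 485 to 778 FPKM in NSD3 MO pools and from 385 to 697 FPKM in mmMO pools (0.2, adjusted p 0.568, and -0.03 without mmMO 4 and 5).

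HSPD1, the mitochondrial chaperonin HSP60, had 296, 299, 324, 314 and 296 FPKM in NSD3 MO pools 1 to 5, against 284, 272, 286, 241 and 228 FPKM in mmMO pools 1 to 5. The groups did not overlap, and the log2 fold change was 0.23 (SE 0.0704, limma adjusted p 0.117), with 0.12 without mmMO 4 and 5. Its partner HSPE1, HSP10, overlapped between groups, at 58.5 to 75.5 FPKM in NSD3 MO pools and 42.7 to 92.7 FPKM in mmMO pools (0.1, adjusted p 0.802). The transcription factor HSF2 averaged 44.9 ± 3.05 FPKM in NSD3 MO pools and 41.1 ± 4.79 FPKM in mmMO pools (SD, n = 5 each; 0.13, adjusted p 0.457). HSF1, the main stress-activated heat shock factor in mammals, was near the filter, at 0.549 to 1.4 FPKM in NSD3 MO pools and 0.724 to 2.15 FPKM in mmMO pools. The spacing of its values gave 7 to 17 fragments in NSD3 MO pools and 10 to 31 in mmMO pools. Its log2 fold change was -0.39 (95% interval -0.9 to 0.13, limma adjusted p 0.422).

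**Figure D3:**
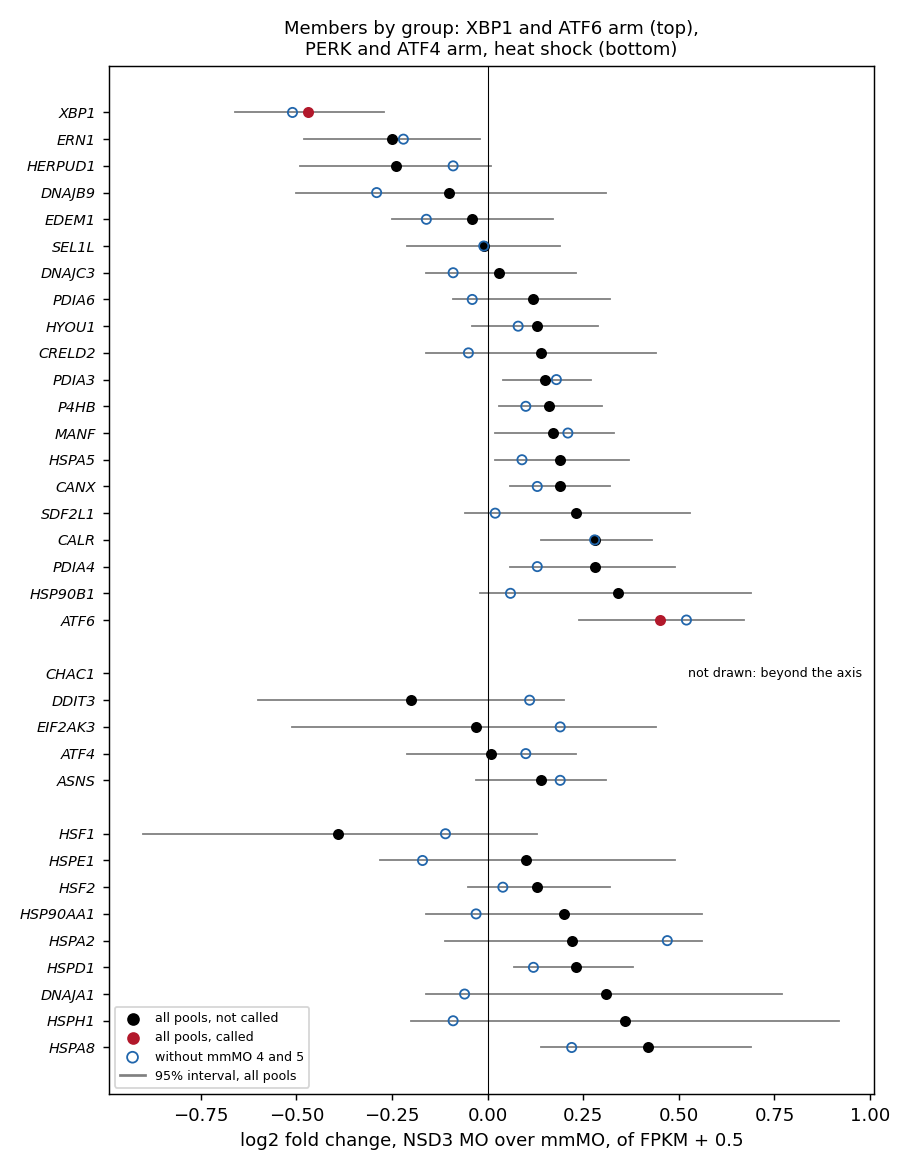
Log2 fold change (horizontal axis, NSD3 MO over mmMO, of FPKM + 0.5) of 33 members with the 95% interval over all 10 pools, and the value without mmMO 4 and 5 as open circles; CHAC1, at -0.53 with an interval from -2.73 to 1.67, is not drawn. XBP1 and ATF6 (red) are the called members. Without mmMO 4 and 5 their values move a little away from 0, by construction as the text describes. Those of HSP90B1, DNAJA1 and HSPH1 move to about 0.

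The XBP1 and ATF6 arm, the PERK and ATF4 arm and the heat shock members were then set side by side. With all pools their median log2 fold changes were 0.15 (20 members), -0.03 (5 members) and 0.22 (9 members), and without mmMO 4 and 5 they were 0.04, 0.19 and -0.03. That fit kept NSD3 MO 5, where the PERK and ATF4 arm was high as in the pools left out. For that arm the fit was thus one-sided, and its change of median does not compare the arms. Of the 20 members of the XBP1 and ATF6 arm, 14 had a positive log2 fold change, against 49.4% of all tested genes. In this arm 10% were called, which is XBP1 lower and ATF6 higher, against 2.52% of all tested genes. So few calls, in opposite directions, give the arm no direction. Mean levels were taken on the log2 scale, centred on the 10 pools. For the XBP1 and ATF6 arm the mean was 0.06, 0.03, 0.11, 0.09 and -0.07 in NSD3 MO pools 1 to 5. In mmMO pools 1 to 5 it was 0.04, -0.04, 0.08, -0.14 and -0.16. The 14 ER folding members of that arm were picked out after the values were seen. Their mean was 0.11, 0.08, 0.13, 0.11 and -0.02 in NSD3 MO pools 1 to 5. In mmMO pools 1 to 5 it was 0.03, -0.05, 0.1, -0.22 and -0.27. The heat shock mean was 0.16, -0.05, 0.21, 0.13 and -0.02 in NSD3 MO pools 1 to 5, against 0, 0.12, 0, -0.23 and -0.33 in mmMO pools 1 to 5. Each of these means was lowest in mmMO 4 and 5 and otherwise overlapped between the groups. The mean of the 5 members of the PERK and ATF4 arm was -0.18, -0.2, -0.08, -0.45 and 0.61 in NSD3 MO pools 1 to 5, against -0.37, -0.49, -0.33, 0.53 and 0.96 in mmMO pools 1 to 5. CHAC1 had the widest range of these members, its highest pool standing 68.8-fold above its lowest. Over the 4 members without CHAC1 the mean was 0.03, 0.03, -0.03, -0.21 and 0.13 in NSD3 MO pools 1 to 5, against -0.16, -0.22, -0.1, 0.1 and 0.43 in mmMO pools 1 to 5. Of the 5 members, CHAC1 and DDIT3 were above mmMO 1 to 3 in both mmMO 4 and mmMO 5, and ATF4, EIF2AK3 and ASNS were not.

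The pools mmMO 4 and 5 stood apart across the transcriptome and not in these genes alone. They were the 2 lowest of the 10 pools for 16.9% of all tested genes and the 2 highest for 14.8%. For the 14 ER folding members they were the 2 lowest in 10, and for the 9 heat shock members in 6. XBP1, ERN1, CALR and MANF were among the members for which mmMO 4 and 5 were neither both above nor both below mmMO 1 to 3, and ATF6 was among the 6 for which both were above. NSD3 MO 5 was the lowest of its group for 18 of the 34 members, against 23.0% of all tested genes. The labels give no date or run that separates these pools, and their part in the chaperone values was not tested beyond leaving them out.

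**Figure D4:**
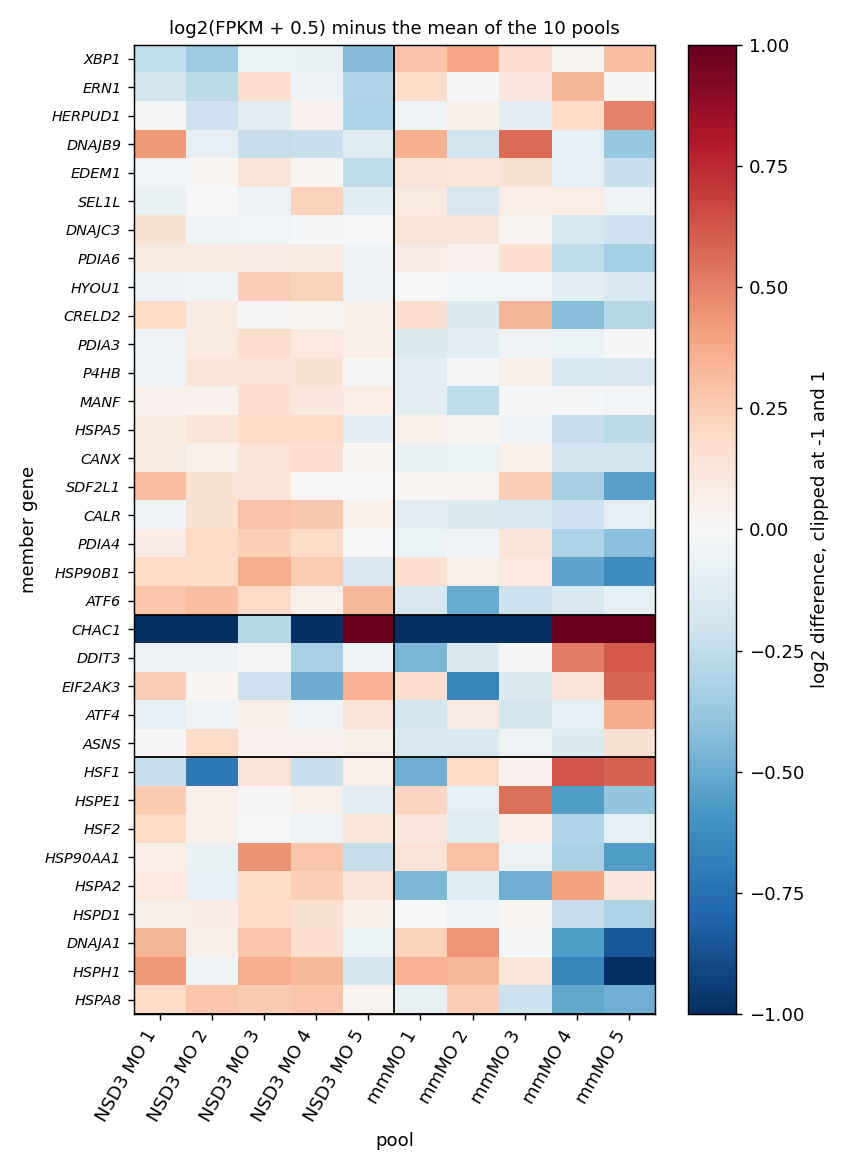
Log2(FPKM + 0.5) of the 34 members (rows, by arm) in the 5 NSD3 MO pools (left) and 5 mmMO pools (right), minus the mean of the 10 pools; the color scale is clipped at -1 and 1. Most ER folding and heat shock rows are lowest in mmMO 4 and 5, CHAC1 and DDIT3 are high there, and the XBP1 and ATF6 rows separate the groups in opposite directions.

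Other genes of the same pathways were read from lists. Among 62 other ER genes, 5 rose, 0 fell and 57 were not called, which is 8.06% called, against 2.52% of all tested genes in either direction. An unadjusted p under 0.05 was reached by 26 in the higher direction and 1 in the lower, 43.5% of the list. Among all tested genes it was reached by 18.1% (9.78% higher and 8.29% lower). The pools mmMO 4 and 5 were the 2 lowest of 10 for 18 of the 62. The median log2 fold change of this list was 0.13, and 0.1 without mmMO 4 and 5. SEC61A1, the channel of the ER translocon, rose to 114 ± 5.6 FPKM in NSD3 MO pools, against 77.1 ± 18.3 FPKM in mmMO pools (log2 fold change 0.6, limma adjusted p 0.0449). CNPY3, an ER cochaperone, rose to 48.4 ± 2.19 FPKM in NSD3 MO pools, against 39.3 ± 2.64 FPKM in mmMO pools (0.3, adjusted p 0.033). SSR3, a subunit of the translocon-associated complex, rose to 165 ± 6.66 FPKM in NSD3 MO pools, against 141 ± 6.93 FPKM in mmMO pools (0.23, adjusted p 0.0448). SRPRB, a subunit of the signal recognition particle receptor, rose with 0.34 (adjusted p 0.0471), and KDELR2, which retrieves ER proteins from the Golgi, rose by the same test (0.25, adjusted p 0.0471). All SDs are over 5 pools.

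The authors' deposited table holds SEC61A1 (0.57, adjusted p 0.00332), SRPRB (0.33, adjusted p 0.00742) and CNPY3 (0.3, adjusted p 0.00831), and not SSR3 or KDELR2. It also holds ERP29, VCP and UBE2G2 of the lists read here, which limma did not call. The ER calls made here lay close to the threshold. That of CNPY3 held in 4 of the 10 fits that left out 1 pool, and those of SSR3, SEC61A1, SRPRB and KDELR2 in 1 each, with adjusted p up to 0.129. Without mmMO 4 and 5, CNPY3, SSR3 and SEC61A1 were called, the last at 0.35 (adjusted p 0.0251), and SRPRB and KDELR2 were not (adjusted p 0.0699 and 0.0779). In that fit 1.68% of all tested genes were called higher.

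Among 42 tested other genes of the ATF4 arm, 2 rose, 0 fell and 40 were not called, 4.76% of the list against 2.52% of all tested genes. At an unadjusted p under 0.05 there were 6 higher and 6 lower, 28.6% of the list, against 18.1% of all tested genes (9.78% higher and 8.29% lower). EIF4EBP1, an inhibitor of translation initiation, rose to 150 ± 4.47 FPKM in NSD3 MO pools, against 123 ± 10.9 FPKM in mmMO pools (SD, n = 5 each; log2 fold change 0.29, limma adjusted p 0.0387). EPRS, the glutamyl-prolyl tRNA synthetase, rose to 48.3 ± 1.76 FPKM in NSD3 MO pools, against 40.7 ± 1.57 FPKM in mmMO pools (0.24, adjusted p 0.0399). The EPRS call was lost in all 10 fits that left out 1 pool (adjusted p up to 0.106), and that of EIF4EBP1 in 8 of them (up to 0.103). The authors' deposited table holds EIF4EBP1 (0.28, adjusted p 0.0057) and not EPRS. DDIT4, an inhibitor of mTORC1 that was chosen after its values were seen, had 200, 245, 337, 127 and 375 FPKM in NSD3 MO pools 1 to 5, against 195, 144, 151, 952 and 1238 FPKM in mmMO pools 1 to 5. It was thus high in mmMO 4 and 5, as CHAC1 was.

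Among 57 tested other heat shock and chaperonin genes, limma called 0 higher and 0 lower, against 1.5% and 1.02% of all tested genes. At an unadjusted p under 0.05 there were 12 higher and 3 lower. These are 26.3% of the list, against 18.1% of all tested genes (9.78% higher and 8.29% lower). The smallest adjusted p belonged to CCT5, a subunit of the cytosolic chaperonin, at 237 ± 7.14 FPKM in NSD3 MO pools and 208 ± 8.95 FPKM in mmMO pools (SD, n = 5 each; log2 fold change 0.18, adjusted p 0.0748). GRPEL1, the nucleotide exchange factor of mitochondrial HSP70, followed with 0.27 (adjusted p 0.0815). Without mmMO 4 and 5, 2 genes of this list were called higher, HSPB9 (log2 fold change 0.87, limma adjusted p 0.00571) and SQSTM1 (0.44, adjusted p 0.0365), and 1 lower, DNAJA2 (-0.36, adjusted p 0.0216). These were named after their values were seen, and the pools left out were picked from the values too. In that fit 1.68% of all tested genes were called higher and 1.2% lower. The authors' deposited table holds GRPEL1 (0.27, adjusted p 0.0338) and DNAJA2 (-0.28, adjusted p 0.0347), and not CCT5, HSPB9 or SQSTM1.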

How the data were processed

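The authors deposited FPKM values for 19168 genes in 10 libraries, and a table of 674 genes with log2 fold changes, adjusted p-values, group means and a mean count, which is used here as a normalised signal and is not a whole number. The submitters' processing notes name the build GRCg6a (galGal6) and the tools DESeq2 1.28.1, STAR 2.5.3a and Trimmomatic 0.32. Which tool counted fragments, whether strand was used and which annotation served is not given in the sources used here. Groups come from the sample titles. The replicates are separate pools of embryos, made from 60 embryos per condition.

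Tests were run in R 4.3.3 with limma 3.58.1 (mean-variance trend) on log2(FPKM + 0.5), keeping genes that averaged at least 1 FPKM. This scale understates the change of low genes. They were two-sided, with Benjamini-Hochberg adjustment over the 11935 genes tested. Intervals are 95% and come from the same fit. Plots used matplotlib 3.10.9, and tables pandas 2.3.3 and numpy 2.4.6, under Python 3.11.15.

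The members and lists were chosen with earlier results of these data known, and the split of ER members into folding and degradation genes was made by role after their values were seen. Named genes are all members, up to 4 called genes per list and direction with the smallest adjusted p, or 2 genes where none was called; KDELR2, the fifth such gene, is given for a complete count. Relative depth is the factor between libraries at which low values coincide. Fragments of CHAC1 and HSF1 are whole multiples of the smallest step that accounted for their values, and cover counting error only. Alternatives were other pseudocounts, filters, scalings and variance models, a replicate block, and leaving out pools. Of the scalings, median ratios gave factors of 0.9999 to 1 in every library, so that setting in effect repeated the main fit. The deposited values were thus already level by median ratios, while total FPKM ran from 492837 in mmMO 4 to 533199 in NSD3 MO 4. The other scaling gave every library the same total FPKM. Promoter and protein sequences were not analysed here.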

Additional observations from a re-analysis of the deposited data

Results flagged for a closer look

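In 6 of the 70 groups of 5 pools examined for the members and NSD3, 1 pool stood far from the other 4 of its group, its gap to the nearest of them being more than 0.71 of the group's range. Chance alone marks about 1 in 20 groups. All 6 lay in the NSD3 MO group. The rule marks a single pool and misses pools that move together, as mmMO 4 and 5 did for CHAC1 (10.3 and 18.5 FPKM). Its marks therefore do not show which group varied more. CHAC1 stood at 12.6 FPKM in NSD3 MO 5, the highest of its group. DDIT3 stood at 9.89 FPKM in NSD3 MO 4, the lowest of its group. In NSD3 MO 1, DNAJB9 (17.4 FPKM) and DNAJC3 (17.5 FPKM) were the highest of their group. PDIA6 stood at 106 FPKM in NSD3 MO 5, the lowest of its group, and ASNS at 21.8 FPKM in NSD3 MO 2, the highest of its group.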

How the results depend on the processing

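With all 10 pools, 179 genes were called higher and 122 lower, 1 member higher and 1 lower, 5, 2 and 0 genes higher in the lists of other ER, ATF4 arm and heat shock genes, and 0 lower in these lists. Leaving out 1 pool at a time gave 70 to 210 genes higher and 33 to 151 lower, 0 to 1 members higher and 0 to 1 lower, 0 to 5 other ER genes higher and 0 to 2 other ATF4 arm genes higher. Without mmMO 4 and 5, 200 genes were called higher and 143 lower over the whole table. In that fit 2 members, 3 other ER genes, 1 other ATF4 arm gene and 2 other heat shock genes were higher. Lower were 1 member, 1 other ATF4 arm gene and 1 other heat shock gene. The median log2 fold changes were 0.04 for the XBP1 and ATF6 arm and -0.03 for heat shock. There DDIT3 (0.11), DNAJC3 (-0.09), EIF2AK3 (0.19), PDIA6 (-0.04), CRELD2 (-0.05), CHAC1 (1.07), HSP90AA1 (-0.03), DNAJA1 (-0.06), HSPH1 (-0.09) and HSPE1 (-0.17) changed sign. With the same total FPKM in every library, 125 genes were called higher and 173 lower over the whole table. There 0 members, 0 other ER and 0 other ATF4 arm genes were higher. XBP1 (limma adjusted p 0.00977) and 1 other heat shock gene were lower, and ATF4 (-0.04) and DNAJC3 (-0.01) changed sign. A pseudocount of 0.1 or a mean of at least 5 FPKM gave 2 members higher, with 176 and 167 genes higher over the whole table. Without a filter 0 members, 2 other ER genes and 178 genes of the whole table were higher. Without the variance trend 0 other ER genes, 0 other ATF4 arm genes and 125 genes of the whole table were higher. Leaving out 1 pool changed the sign of ATF4 (-0.04 to 0.1), DNAJB9 (-0.22 to 0.03), DNAJC3 (-0.02 to 0.07), EDEM1 (-0.1 to 0.02), SEL1L (-0.07 to 0.02), EIF2AK3 (-0.2 to 0.11), CHAC1 (-1.23 to 0.17) and HSPE1 (-0.02 to 0.26). The cause was not tested.

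The labels do not say whether pools of the same replicate number were made together. Deviations from the group mean correlated between same-numbered pools with r from -0.128 to 0.34. Of the NSD3 MO pools, 2 of 5 correlated best with the mmMO pool of their own number. So few pairs cannot settle whether the pools were paired. With a replicate block 97 genes were called higher and 62 lower, 0 members higher and 0 lower, 1 other ER gene and 0 other ATF4 arm genes higher; XBP1 and ATF6 had adjusted p of 0.0821 and 0.0868.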
